A study of Rattus norvegicus with 24 samples.

Results

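U6 and 7SK are short nuclear RNAs made by RNA polymerase III, and the rat annotation used for these files lists each of them at many places under one family name. All rows named for the U6 family or the 7SK family were taken, each gene identifier apart, when their FPKM was above 0 in at least 4 of the 24 files. FPKM is a fragment count scaled for the length of the gene and for the size of the library, so levels of different copies are given per length. The rule left 186 copies of 23950 gene rows, 116 of the 307 U6 rows and 70 of the 159 7SK rows. It used no comparison between groups.

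The libraries came from the nucleus accumbens (NAc), a forebrain region of the reward pathway, of Sprague Dawley rat pups at P14, 4 libraries from separate litters in each of 6 groups. In utero oxycodone (IUO) pups descended from F0 females gavaged with oxycodone (oxy), an opioid, from before mating until weaning, first at 10 mg/kg/day and, after a stepwise rise, at 15 mg/kg/day. Post-natal oxycodone (PNO) pups descended from dams gavaged with oxy at 15 mg/kg/day from birth to weaning, and saline (SAL) pups from dams given saline. F1 pups were the offspring of these dams, and F2 pups were the offspring of F1 animals that were never dosed themselves. The labels do not say which pups were male or female, and in whole tissue fewer cells of a type and less RNA per cell cannot be told apart.

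U6 is the catalytic small nuclear RNA of the spliceosome, the machine that removes introns, where it pairs first with U4 and then with U2 and the intron. 7SK binds the proteins Hexim1 and Larp7 and holds the elongation factor P-TEFb (Cdk9 with a cyclin T) inactive, which limits the release of paused RNA polymerase II. Both are transcribed from promoters placed outside the gene, both lack a poly(A) tail, and mammalian genomes hold many retroposed copies of each, most of them thought to be pseudogenes. Whether poly(A) RNA was selected before sequencing is not given in the sources used here. Reads from near-identical copies can be split among them by the counting, so the level of any single copy is uncertain. The strand setting and the positions of the copies are also not given, so reads from a gene around a copy cannot be set apart from reads of the copy.

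All 10 markers of NAc and striatal projection neurons were above 0 in all 24 libraries, with a summed level of 422 to 1366 FPKM. Between 4782 and 7532 gene rows were listed at 0 per library, and the 4 libraries with the most were F1 IUO replicates 1 and 4 and F2 IUO replicates 2 and 4 (6892 to 7532 rows). Summed choroid plexus markers were above 200 FPKM in 7 libraries and below 100 FPKM in the rest. Depth is unknown, and values at 0 are described as listed at 0.

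Most copies were sparse. Of the 70 7SK copies, 4 were above 0 in all 24 files and 30 in at least 12, and the median copy was listed at 0 in 14.5 files. Of the 116 U6 copies, 2 were above 0 in all 24 files and 34 in at least 12, and the median copy was listed at 0 in 16.5 files. The mean level over 24 libraries ran from 0.0092 to 14.4 FPKM for 7SK, with a median of 0.115, and from 0.0171 to 2.79 FPKM for U6, with a median of 0.141. A mean of at least 1 FPKM was reached by 7 7SK copies and 5 U6 copies, and a mean under 0.1 FPKM was seen for 32 and 42.

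**Figure D1:**
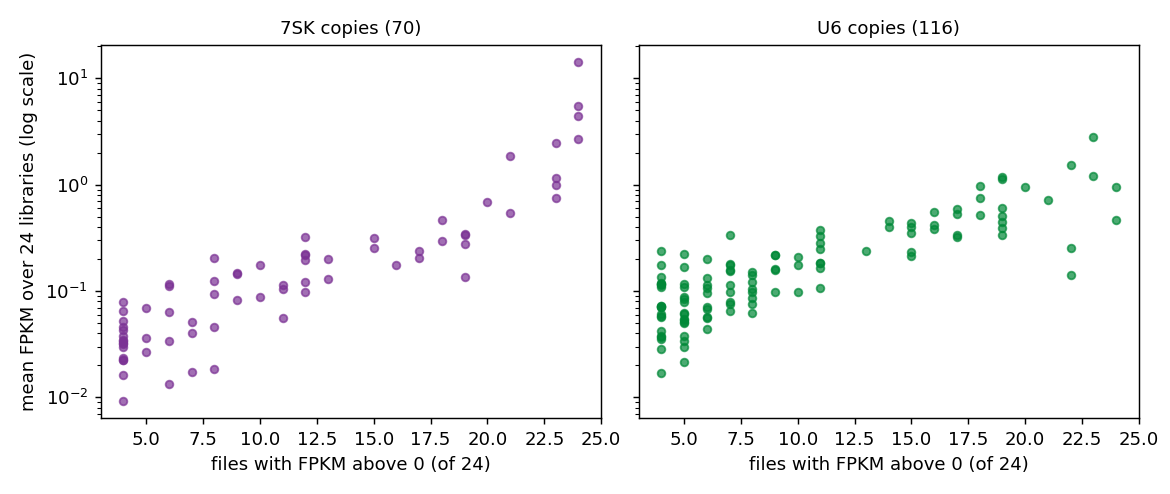
Mean FPKM over 24 libraries (log scale) against the number of files with FPKM above 0, for each of the 70 7SK and 116 U6 copies (points). The 7SK copies reach 14.4 FPKM and the U6 copies 2.79 FPKM, and most copies of both families lie at the left, above 0 in few files.

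At the limit of the rule, 16 7SK copies were above 0 in exactly 4 files and 15 rows in 3 files. Their highest single values had medians of 0.335 and 0.360 FPKM. For U6 the numbers were 21 copies inside and 30 rows outside, with medians of 0.930 and 0.500 FPKM. In 10 7SK copies and 28 U6 copies, more than 50% of the summed level came from 1 library. One such U6 copy, ENSRNOG00000059498, chosen after its values were seen, lay between 0.09 and 0.24 FPKM in 23 libraries and at 7.69 FPKM in F2 IUO replicate 4.

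The files attach a protein description to 25 of the 70 7SK copies and 25 of the 116 U6 copies. For 19 7SK copies it was the same one, a nuclear prelamin A recognition factor of a bat, and these copies had a median mean level of 0.203 FPKM against 0.104 FPKM for the 45 copies with no description. The copies with the highest, the next highest and the fourth highest 7SK means all carried it. Such a description does not change that the row is named for the small RNA family.

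The 4 highest 7SK copies gave 42.7% to 90.4% of the summed 7SK level in a library. The highest, ENSRNOG00000058555, had a mean of 14.4 FPKM and was above 0 in every file. It was at 13.9, 10.6, 16.2 and 18.03 FPKM in F1 SAL, at 5.05, 3.94, 8.71 and 6.17 FPKM in F1 PNO and at 14.1, 10.2, 29.0 and 39.2 FPKM in F1 IUO. In F1, every PNO library lay below every SAL and every IUO library, while IUO and SAL overlapped. It was at 23.4, 18.9, 26.9 and 33.5 FPKM in F2 SAL, at 7.24, 10.07, 6.06 and 6.54 FPKM in F2 PNO and at 11.8, 2.89, 12.4 and 9.89 FPKM in F2 IUO. In F2, every SAL library lay above every PNO and every IUO library, while PNO and IUO overlapped.

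**Figure D2:**
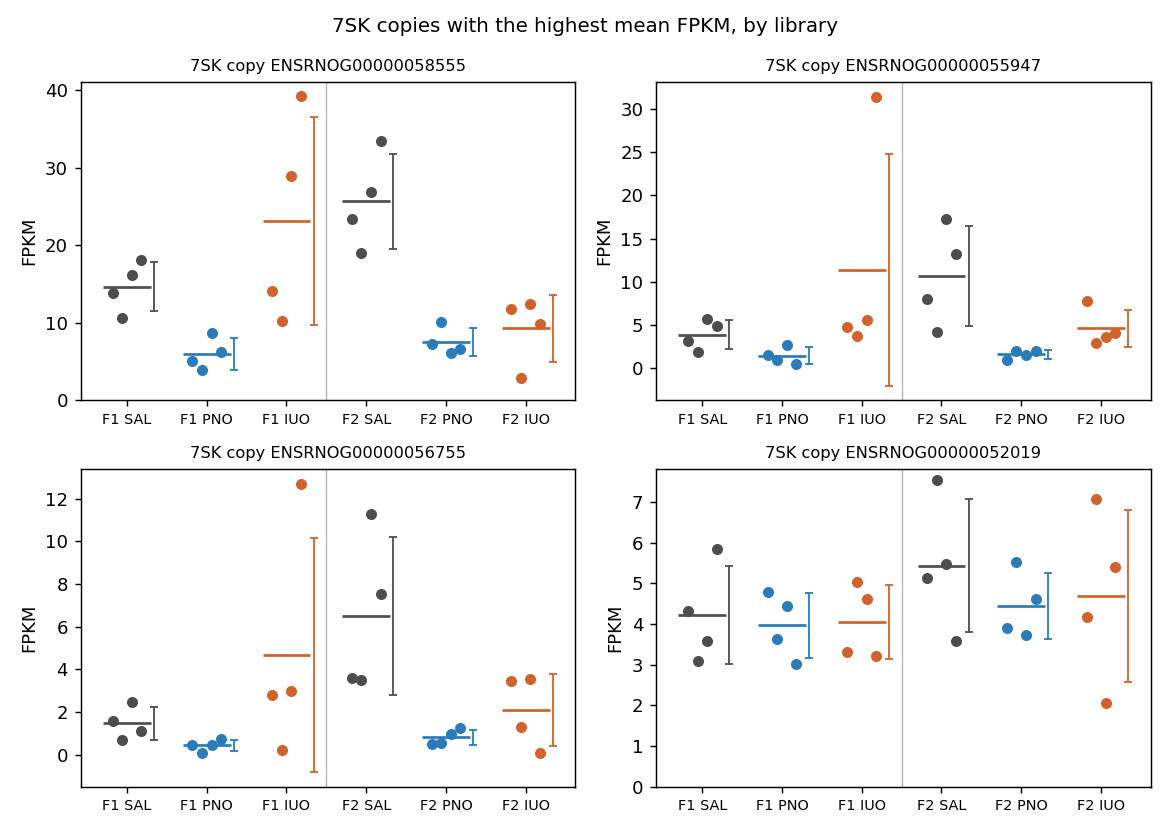
FPKM of the 4 7SK copies with the highest means in each of the 24 libraries (points, 4 per group), with the group mean (horizontal line) and its SD (bar beside it). In ENSRNOG00000058555 the F2 SAL libraries (18.9 to 33.5 FPKM) lie above all F2 PNO and F2 IUO libraries, and ENSRNOG00000052019 shows no such separation.

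The second, ENSRNOG00000055947 (mean 5.54 FPKM), was at 3.08, 1.82, 5.66 and 4.8 FPKM in F1 SAL, at 1.5, 0.83, 2.68 and 0.40 FPKM in F1 PNO and at 4.76, 3.64, 5.49 and 31.5 FPKM in F1 IUO. It was at 7.96, 4.14, 17.3 and 13.2 FPKM in F2 SAL, at 0.85, 1.94, 1.42 and 1.90 FPKM in F2 PNO and at 7.76, 2.81, 3.55 and 4.05 FPKM in F2 IUO. F1 IUO replicate 4 stood far above its group, and each PNO group had the lowest mean of its generation. The fourth by mean, ENSRNOG00000056755 (2.66 FPKM), ranged from 0.70 to 2.48 FPKM in F1 SAL, 0.09 to 0.74 in F1 PNO, 0.20 to 12.7 in F1 IUO, 3.52 to 11.3 in F2 SAL, 0.49 to 1.25 in F2 PNO and 0.07 to 3.57 in F2 IUO. Across the 24 libraries the levels of these 3 copies ranked alike, with a Spearman rho of 0.87 between the first pair, and 0.76 and 0.75 with the fourth. These correlations are descriptions over 24 libraries that share groups, and reads may have been divided among the copies.

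The third by mean, ENSRNOG00000052019 (4.46 FPKM), ranked differently. It lay between 2.07 and 7.53 FPKM in all 24 libraries, and its rho with ENSRNOG00000058555 was -0.03. Its group means were 4.21 ± 1.20, 3.96 ± 0.802 and 4.04 ± 0.913 FPKM in F1 SAL, PNO and IUO, and 5.43 ± 1.63, 4.44 ± 0.808 and 4.68 ± 2.11 FPKM in F2 (SD, n = 4). The groups overlapped in every comparison, and its smallest p over the 9 comparisons was 0.204 in limma without adjustment and 0.286 in the exact permutation test.

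Summed over the 70 7SK copies, the level was 40.4, 29.2, 47.4 and 49.6 FPKM in F1 SAL, 25.04, 19.9, 25.9 and 22.9 FPKM in F1 PNO and 48.6, 35.5, 69.6 and 95.8 FPKM in F1 IUO. It was 56.4, 60.4, 98.2 and 65.6 FPKM in F2 SAL, 19.4, 32.3, 21.9 and 26.7 FPKM in F2 PNO and 33.5, 28.1, 44.7 and 24 FPKM in F2 IUO. The PNO sums lay below the SAL sums in both generations without overlap, and the F2 IUO sums lay below the F2 SAL sums. Without ENSRNOG00000058555 alone, F1 PNO (15.94 to 19.99 FPKM) overlapped F1 SAL (18.64 to 31.54 FPKM). F2 IUO (14.11 to 32.28 FPKM) then overlapped F2 SAL (32.13 to 71.38 FPKM), while F2 PNO (12.2 to 22.25 FPKM) still lay below F2 SAL. Without the 4 highest copies the 7SK sum was 7.87 to 37.3 FPKM in F2 SAL and 6.96 to 14.3 FPKM in F2 PNO, and the groups overlapped.

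The sums of the 116 U6 copies ran from 25.8 to 47.0 FPKM in F1 SAL, 25.3 to 34.4 in F1 PNO, 25.2 to 39.9 in F1 IUO, 15.1 to 31.2 in F2 SAL, 31.8 to 42.6 in F2 PNO and 23.4 to 35.7 in F2 IUO. The F2 PNO sums lay above the F2 SAL sums, and the 2 families thus stood in opposite order in that pair of groups. Over the 24 libraries the 7SK and U6 sums had a Spearman rho of -0.21. The 3 U6 copies of highest mean, ENSRNOG00000059853 (2.79 FPKM), ENSRNOG00000061677 (1.54 FPKM) and ENSRNOG00000054090 (1.21 FPKM), gave no common order, with rho from -0.38 to -0.07 between them.

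**Figure D3:**
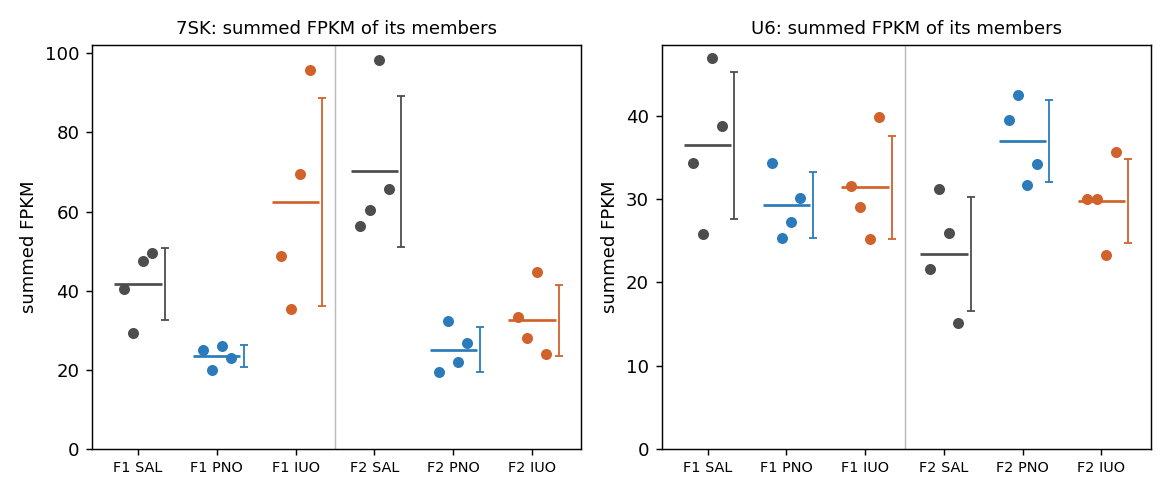
Summed FPKM of the 70 7SK copies (left) and of the 116 U6 copies (right) in each library (points), with group mean (line) and SD (bar). The 7SK sums in the PNO groups (19.4 to 32.3 FPKM) lie below those of the SAL group of the same generation, and the U6 sums run from 15.1 to 47.0 FPKM.

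Each comparison was tested by limma on log2(FPKM + 0.1), so that log2 differences of low copies are understated. A row entered the test when 4 or more of its 8 values reached 0.1 FPKM. To pass the rule a row needed a p under 0.05 before adjustment together with a ratio of mean FPKM of 2 or more. This ratio, like the folds given below, was taken without the added 0.1 and can be large where a mean is near 0. Of the 70 7SK copies, 42 were tested in at least 1 comparison and 28 in none. Of the 116 U6 copies, 67 were tested in at least 1 and 49 in none. A copy that is tested only because 1 group is high had to differ, so the counts describe the tested copies. Of the 69 calls past the rule in the 9 comparisons, 11 (6 of 7SK and 5 of U6) were of copies that reached 0.1 FPKM in the libraries of 1 group alone, 2 between F1 IUO and F1 SAL, 3 between F2 IUO and F2 SAL, 2 between F2 PNO and F2 SAL and 0 or 1 in each other comparison. After Benjamini-Hochberg adjustment over all rows tested, 0 copies had an adjusted p under 0.05 in limma in any of the 9 comparisons, and of all rows 0.133% did for F1 IUO against F1 PNO, 0.00576% for F2 PNO against F2 SAL, 0.0343% for F2 SAL against F1 SAL, 0.0288% for F2 PNO against F1 PNO and 0% for the other 5. Comparisons of a generation share their SAL, PNO or IUO libraries and are given side by side.

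Between F1 PNO and F1 SAL, 5 of 29 tested 7SK copies passed the rule, 1 higher and 4 lower in PNO, and 5 of 47 tested U6 copies, all lower, where 1.86% of all 17494 rows tested passed, 0.84% higher and 1.02% lower. Before adjustment, 10 of the 76 tested copies had a p under 0.05 in limma (13.9% of all rows), and the groups did not overlap for 3 (8.27%). The median log2 difference was -0.50 for 7SK copies and -0.02 for U6 copies, against -0.05 for all rows. ENSRNOG00000058555 was at 5.97 ± 2.04 FPKM in PNO and 14.7 ± 3.20 FPKM in SAL (SD, n = 4), a log2 difference of -1.32 (standard error 0.247, adjusted p = 0.231 from limma), and the groups did not overlap. The U6 copy ENSRNOG00000061677 was at 0, 0.63, 0.23 and 0.60 FPKM in PNO and 1.27, 4.42, 2.03 and 2.26 FPKM in SAL. All PNO values lay below all SAL values, with a log2 difference of -2.71 (standard error 0.636, adjusted p = 0.231 from limma). The U6 copy ENSRNOG00000054670 was at 0.14, 0.14, 0.40 and 0.31 FPKM in F1 SAL and was listed at 0 in all 4 F1 PNO, all 4 F1 IUO and all 4 F2 SAL libraries. It was tested there only through its F1 SAL values, and no fold is given. In this comparison 5 of 6 thalamus markers passed the rule higher in PNO (summed 183 to 430 FPKM against 83.0 to 252 FPKM in SAL) and 3 of 7 hypothalamus markers lower. All 10 NAc markers had lower values in PNO without passing (median log2 difference -0.49). All 6 cortex markers (median 1.24) and all 3 tested blood markers (median 1.57) had higher values in PNO, also without passing. The part of these genes in the result was not tested.

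Between F1 IUO and F1 SAL, 2 of 32 tested 7SK copies passed, 1 higher and 1 lower, and 6 of 40 tested U6 copies, all lower in IUO, where 1.61% of 17380 rows passed, 0.541% higher and 1.06% lower. Before adjustment, 8 of the 72 tested copies had a p under 0.05 in limma (3.91% of all rows), and the groups did not overlap for 7 (2.54%). The median log2 difference was -0.04 for 7SK and -0.91 for U6 copies, against 0.01 for all rows. ENSRNOG00000060581, a U6 copy, was at 0.46, 1.31, 1.41 and 1.08 FPKM in SAL and at 0, 0, 0.39 and 0 FPKM in IUO. For this copy limma gave a log2 difference of -2.87 (standard error 0.610, adjusted p = 0.999), and the groups did not overlap. ENSRNOG00000052770, also U6, was at 0.91, 0.21, 1.45 and 0.15 FPKM in SAL and at 0, 0, 0.02 and 0 FPKM in IUO. It was tested only through its SAL values, so that it had to differ. F1 IUO replicates 1 and 4 had 27 and 22 of the 116 U6 copies above 0, against 54 to 62 in F1 SAL. Without those libraries, chosen after seeing the data, 5 U6 copies passed lower and 2 7SK copies higher, where 1.38% of rows passed. In the full comparison 4 of 7 hypothalamus markers passed the rule higher in IUO (summed 44.4 to 160 FPKM against 10.5 to 58.3 FPKM in SAL). The same held for 2 of 3 tested blood markers (summed 28.0 to 410 FPKM over the list against 12.9 to 88.5 FPKM) and 1 of 6 cortex markers, all 6 of which had higher values in IUO (median log2 difference 1.29). The 13 mitochondrially encoded genes all had lower values in IUO without passing (median -0.28). Their part in the result was not tested.

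Between F1 IUO and F1 PNO, 6 of 29 tested 7SK copies passed, 5 higher and 1 lower in IUO, and 3 of 38 tested U6 copies, all lower, where 2.95% of 17306 rows passed, 1.45% higher and 1.5% lower. Before adjustment, 9 of the 67 tested copies had a p under 0.05 in limma (16.5% of all rows), and the groups did not overlap for 2 (10.5%). ENSRNOG00000058555 was 3.87-fold higher in IUO (log2 difference 1.79, standard error 0.415, adjusted p = 0.116 from limma) and ENSRNOG00000055947 was 8.38-fold higher (log2 difference 2.65, standard error 0.714, adjusted p = 0.142 from limma). For both, every IUO library lay above every PNO library. Without F1 IUO replicate 4 the ratio for ENSRNOG00000055947 was 3.42-fold (4.63 against 1.35 FPKM). Without F1 IUO replicates 1 and 4 the total was 4 copies, where 2.6% of rows passed, and without libraries rich in choroid plexus markers it was 2, where 3.94% did, both left out after seeing the data. The second of these fits kept 2 IUO and 2 PNO libraries. Its smaller size and the choroid plexus content cannot be told apart. In this comparison 6 of 7 hypothalamus markers passed the rule higher in IUO (summed 44.4 to 160 FPKM against 4.10 to 12.9 FPKM in PNO) and 4 of 6 thalamus markers lower. Of the 10 NAc markers, 9 had higher values in IUO without passing (median log2 difference 0.52). Before adjustment, 6 of the 10 had a p under 0.05 in limma, where 16.5% of all rows did. All 13 mitochondrially encoded genes had lower values in IUO without passing (median -0.31). The part of these genes in the result was not tested.

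Between F2 PNO and F2 SAL, 9 of 26 tested 7SK copies passed, all lower in PNO, and 1 of 41 tested U6 copies, higher, where 2.15% of 17367 rows passed, 0.864% higher and 1.28% lower. Before adjustment, 10 of the 67 tested copies had a p under 0.05 in limma (10.8% of all rows), and the groups did not overlap for 6 (7.01%). The median log2 difference was -0.76 for 7SK and 0.49 for U6 copies, against -0.08 for all rows. ENSRNOG00000058555 was at 7.48 ± 1.79 FPKM in PNO and 25.7 ± 6.12 FPKM in SAL (SD, n = 4), 3.43-fold higher in SAL, with a log2 difference of -1.76 (standard error 0.214, adjusted p = 0.0561 from limma). With a pseudocount of 1 this copy had an adjusted p under 0.05. ENSRNOG00000056755 was at 0.49, 0.55, 0.97 and 1.25 FPKM in PNO and 3.61, 3.52, 11.3 and 7.54 FPKM in SAL, without overlap, with a log2 difference of -2.76 (standard error 0.442, adjusted p = 0.128 from limma). ENSRNOG00000055947 was 6.96-fold higher in SAL (log2 difference -2.60, standard error 0.443). The 13 mitochondrially encoded genes, whose sum was 182494 to 320859 FPKM in PNO and 183686 to 216704 FPKM in SAL, all had higher values in PNO without passing the rule. Of the 3 tested blood markers, 2 passed higher in PNO (summed 30.5 to 195 FPKM over the list against 13.2 to 36.1 FPKM in SAL), as did 1 of 7 hypothalamus markers, while the median of that list was -0.78. The part of these genes in the result was not tested.

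Between F2 IUO and F2 SAL, 8 of 22 tested 7SK copies passed, all lower in IUO, and 0 of 29 tested U6 copies, where 2.18% of 17097 rows passed, 0.503% higher and 1.68% lower. Before adjustment, 8 of the 51 tested copies had a p under 0.05 in limma (8.49% of all rows), and the groups did not overlap for 5 (5.11%). All 8 of them were 7SK copies. ENSRNOG00000058789, a 7SK copy, was at 0.02, 0.07, 0.65 and 0 FPKM in F2 IUO, at 2.07, 1.71, 1.51 and 1.55 FPKM in F2 SAL and at 1.02, 1.83, 1.37 and 2.5 FPKM in F2 PNO. Every F2 IUO library lay below every F2 SAL and F2 PNO library. In limma the log2 difference was -3.18 against SAL (standard error 0.605, adjusted p = 0.249) and -3.10 against PNO (standard error 0.651, adjusted p = 0.399). The 7SK copy ENSRNOG00000052697 was at 0.32, 0.12, 0.27 and 0.93 FPKM in F2 SAL and listed at 0 in all 4 F2 IUO libraries, and was tested only through its SAL values. ENSRNOG00000058555 was 2.78-fold higher in SAL (log2 difference -1.63, standard error 0.421, adjusted p = 0.420 from limma), without overlap. The F2 IUO libraries had 22, 24, 34 and 18 of the 70 7SK copies above 0, against 25 to 35 in F2 SAL. Without replicates 2 and 4, those with the most rows at 0, left out after seeing the data, 6 7SK copies passed lower and 0 higher, and 2 U6 copies passed higher and 2 lower, where 3.24% of rows passed. In the full comparison 2 of 3 tested blood markers (summed 27.3 to 120 FPKM over the list against 13.2 to 36.1 FPKM in SAL) and 2 of 6 cortex markers (176 to 351 against 135 to 222 FPKM) passed the rule higher in IUO. Of the 10 NAc markers, 9 had lower values in IUO without passing (median log2 difference -0.42). Their part in the result was not tested.

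Between F2 IUO and F2 PNO, 3 of 19 tested 7SK copies passed, 2 higher and 1 lower in IUO, and 3 of 36 tested U6 copies, all lower, where 1.8% of 17090 rows passed, 0.591% higher and 1.21% lower. Before adjustment, 6 of the 55 tested copies had a p under 0.05 in limma (7.07% of all rows), and the groups did not overlap for 4 (4.74%). The lower 7SK copy was ENSRNOG00000058789, and ENSRNOG00000055947 was one of the higher, at 2.97-fold (log2 difference 1.47, standard error 0.384, adjusted p = 0.441 from limma). The U6 copy ENSRNOG00000058451 was at 0, 0.07, 0 and 0 FPKM in IUO and 0.55, 0.54, 0.54 and 0.16 FPKM in PNO. It was tested only through its PNO values, so that it had to differ. In this comparison 2 of 7 hypothalamus markers passed the rule higher in IUO, and all 13 mitochondrially encoded genes had lower values in IUO without passing (median log2 difference -0.28). All 6 cortex markers had higher values in IUO (median 1.27), and of the 10 NAc markers 9 had lower values and 1 higher (median -0.39), without passing. The part of these genes in the result was not tested.

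The same treatment was also compared between generations. Between F2 SAL and F1 SAL, 5 of 29 tested 7SK copies passed, 4 higher and 1 lower in F2, and 5 of 38 tested U6 copies, all lower, where 1.45% of 17497 rows passed, 0.572% higher and 0.874% lower. Before adjustment, 12 of the 67 tested copies had a p under 0.05 in limma (8.48% of all rows), and the groups did not overlap for 7 (4.98%). ENSRNOG00000056755 was at 1.58, 0.70, 2.48 and 1.12 FPKM in F1 SAL, all below its F2 SAL values, with a log2 difference of 2.03 (standard error 0.452, adjusted p = 0.569 from limma). Neither SAL group descended from dams given oxy, and whether the generations were processed together is not given in the sources used here. All 8 choroid plexus markers had lower values in F2 SAL without passing (median log2 difference -0.78). Their sum was 5204 FPKM in F1 SAL replicate 1 and at most 84.2 FPKM in F2 SAL. Of 6 cortex markers, 5 had higher values and 1 lower (median 0.82). Of 13 mitochondrially encoded genes, 11 had lower values and 2 higher (median -0.11). None of these passed, and their part in the result was not tested. Between F2 PNO and F1 PNO, 0 of 20 tested 7SK copies passed and 3 of 45 tested U6 copies, 2 higher and 1 lower, where 2.01% of 17370 rows passed, 0.835% higher and 1.17% lower. Before adjustment, 3 of the 65 tested copies had a p under 0.05 in limma (4.76% of all rows), and the groups did not overlap for 0 (3.34%). All 3 of them were U6 copies. The 2 U6 copies with the smallest p there, ENSRNOG00000053493 (log2 difference -1.91, standard error 0.689) and ENSRNOG00000061677 (1.98, standard error 0.732), each lost the call in 5 of 14 alternatives. Of the 10 NAc markers, 8 had higher values in F2 PNO and 2 lower, without passing (median log2 difference 0.33). Before adjustment, 4 of the 10 had a p under 0.05 in limma, where 4.76% of all rows did. All 6 thalamus markers had lower values in F2 PNO, and 1 passed. The part of these genes in the result was not tested. Between F2 IUO and F1 IUO, 4 of 20 tested 7SK copies and 1 of 27 tested U6 copies passed, all lower in F2, where 3.32% of 16916 rows passed, 0.556% higher and 2.77% lower. Before adjustment, 5 of the 47 tested copies had a p under 0.05 in limma (15% of all rows), and the groups did not overlap for 2 (10.7%). The U6 copy ENSRNOG00000060360 was at 3.48, 0.60, 0.76 and 2.13 FPKM in F1 IUO and 0, 0.31, 0 and 0 FPKM in F2 IUO (log2 difference -3.38, standard error 0.692, adjusted p = 0.221 from limma). The 7SK copy ENSRNOG00000056622 was at 0.30, 0.78, 0.29 and 0.80 FPKM in F1 IUO and 0, 0, 0.04 and 0 FPKM in F2 IUO, and was tested only through its F1 values. Of the 10 NAc markers, 9 had lower values in F2 IUO and 1 higher, without passing (median log2 difference -0.56). Before adjustment, 4 of the 10 had a p under 0.05 in limma, where 15% of all rows did. All 8 choroid plexus markers had lower values and all 6 cortex markers higher ones, without passing. Their part in the result was not tested. Without the libraries rich in choroid plexus markers, left out after seeing the data, the count for F2 IUO against F1 IUO was 0, where 2.26% of rows passed, and without the 4 libraries with the most rows at 0 it was 4, where 3.45% did. The first of these fits kept 3 F2 and 2 F1 libraries, the second 2 and 2. Their smaller size and the traits of the libraries left out cannot be told apart.

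**Figure D4:**
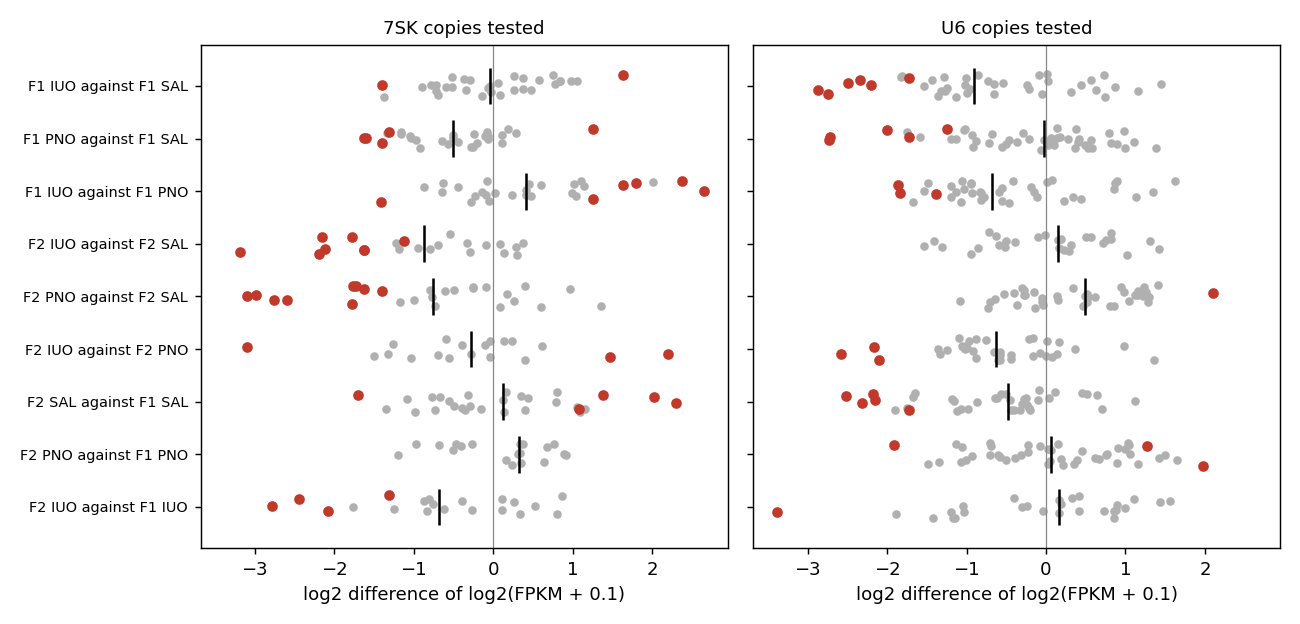
Log2 difference of log2(FPKM + 0.1) in each of the 9 comparisons (rows) for the tested 7SK copies (left) and U6 copies (right). Red points passed the rule, grey points did not, and the black line is the median of the tested copies. In F2 PNO against F2 SAL the 7SK median is -0.76 and the U6 median 0.49.

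In exact two-sided permutation tests of 4 against 4 libraries, 0.0286 is the smallest p that 70 splits can give. It was reached for each named copy in each comparison where its groups did not overlap, which for a copy tested only through 1 group the filter had fixed.

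Whether the treatment differences themselves differed between generations was tested as an interaction. For IUO against SAL, 8 copies had an interaction p under 0.05 (5 of 43 tested 7SK copies and 3 of 62 tested U6 copies), where 5.15% of 18437 rows did. For PNO against SAL it was 1 of 41 7SK copies and 7 of 86 U6 copies, where 4.06% of rows did, and for IUO against PNO 5 of 42 and 2 of 71, where 5.76% did. The adjusted p of limma was 0.618 or higher for every copy. In IUO against SAL all 5 7SK copies had negative interactions (a lower F2 difference) and all 3 U6 copies positive ones. Of these U6 copies, ENSRNOG00000052770 and ENSRNOG00000054670 reached 0.1 FPKM in 4 libraries in F1 SAL and in 0 or 1 in the other 3 groups, so that their interactions restate the F1 SAL level.

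Other RNAs made by RNA polymerase III and other small RNA families were set beside the copies. Of 400 such rows, 75 were tested for F2 PNO against F2 SAL. The rule was met by 12 lower in PNO and 1 higher, where 2.15% of all rows passed. Their median log2 difference was -0.09, against -0.08 for all rows. For F2 SAL against F1 SAL it was met by 12 of 80 higher and 2 lower, where 0.572% of all rows passed higher and 0.874% lower. For F2 PNO against F1 PNO, where 0 7SK copies passed, it was 10 of 73 higher and 1 lower. Of all rows, 0.835% passed higher there and 1.17% lower. In each remaining comparison, 52 to 75 were tested, and 1 to 6 met it higher and 2 to 6 lower. Of all rows, 0.503% to 1.45% passed higher in those comparisons and 1.02% to 2.77% lower. Rn7sl1, the RNA of the signal recognition particle, was at 332, 218, 650 and 368 FPKM in F2 SAL and at 89.8, 65.7, 78.2 and 74.5 FPKM in F2 PNO. Every F2 SAL library lay above every F2 PNO library (log2 difference -2.24, standard error 0.285, adjusted p = 0.0561 from limma). Rpph1, the RNA of RNase P, was at 7.13 ± 1.77 FPKM in F2 PNO and 28.4 ± 6.78 FPKM in F2 SAL (SD, n = 4; log2 difference -1.98, adjusted p = 0.0561 from limma). Sums of other families made by RNA polymerase III were also read, with no test. The summed Y RNA rows were at 2.16 to 3.86 FPKM in F2 PNO and 0.41 to 2.44 FPKM in F2 SAL, and the summed RF00009 rows (also RNase P) at 1.25 to 2.91 and 0.34 to 2.48 FPKM. The summed 5S ribosomal RNA rows were at 7.73 to 22.8 FPKM in F2 PNO and 6.63 to 15.6 FPKM in F2 SAL. In these 3 families the groups overlapped, while the summed RNase MRP rows (0 to 0.54 against 1.02 to 2.88 FPKM) and U6atac rows (0 to 0.27 against 0.28 to 0.92 FPKM) lay below SAL in every F2 PNO library. Over the 24 libraries the summed 7SK level had a Spearman rho of 0.76 with Rn7sl1, 0.75 with the summed RF00017 rows (also signal recognition particle RNA), 0.15 with the summed U1 rows, 0.40 with the summed histone genes and -0.52 with the summed mitochondrial genes. FPKM is relative to the rest of a library, and these are descriptions over libraries that share groups. In F1, Rn7sl1 was 3.90-fold higher in IUO than in PNO (adjusted p = 0.0506 from limma), and the groups did not overlap.

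**Figure D5:**
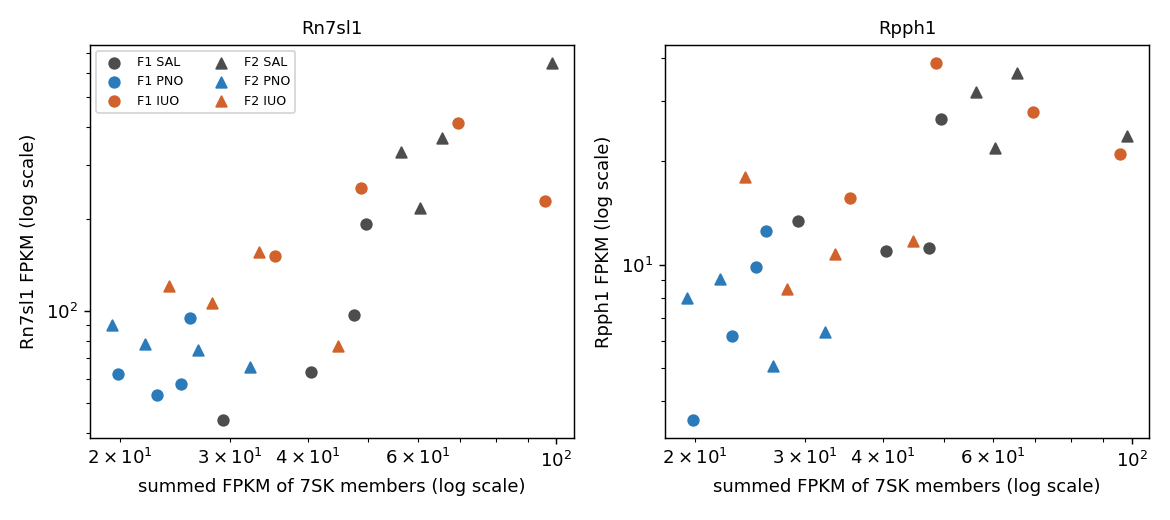
Rn7sl1 FPKM (left) and Rpph1 FPKM (right) against the summed FPKM of the 70 7SK copies in each of the 24 libraries, all on log scales (circles F1, triangles F2). The F2 SAL libraries lie at the upper right, with Rn7sl1 at 218 to 650 FPKM, and the 8 PNO libraries have 7SK sums of 19.4 to 32.3 FPKM and Rn7sl1 at 53.2 to 94.6 FPKM.

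The proteins that 7SK and U6 work with were read from 3 lists. Of 28 genes for the 7SK particle and P-TEFb, all 28 were tested in each comparison, and 1 call in all passed the rule, between F1 PNO and F1 SAL, where 1.86% of all rows passed. Ccnt1, the cyclin T of P-TEFb, was at 0.54, 0.42, 0.42 and 0.72 FPKM in F1 SAL and 0.39, 0.35, 0.09 and 0.16 FPKM in F1 PNO, without overlap (log2 difference -0.93, adjusted p = 0.322 from limma). Between F2 IUO and F1 IUO, 8 of the 28 had an unadjusted p below 0.05 in limma, where 15% of all rows did. The groups did not overlap there for 2 genes higher and 6 lower in F2, against 10.7% of all rows. In each other comparison, 0 to 5 of the 28 had such a p, where 3.91% to 16.5% of all rows did. None of the 25 genes for the U6 particle, its maturation and the tri-snRNP passed, and 0 had an adjusted p under 0.05 in limma. Between F1 IUO and F1 PNO, 10 of the 25 had an unadjusted p below 0.05, where 16.5% of all rows did, and it was 7 of 25 between F1 PNO and F1 SAL, where 13.9% did, and 0 to 4 of 25 in the other 7 comparisons, where 3.91% to 15% did. Of 25 genes for RNA polymerase III and its promoter factors, 1 passed in 1 comparison, F2 IUO against F1 IUO, where 3.32% of rows passed. Bdp1, a subunit of the initiation factor TFIIIB, was at 1.79, 2.15, 2.09 and 2.15 FPKM in F1 IUO and at 0.87, 1.29, 0.91 and 0.43 FPKM in F2 IUO, without overlap (log2 difference -1.21, adjusted p = 0.236 from limma).

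Of the 10943 rows outside both families with FPKM of at least 1 in all 24 libraries, those ranked most like the summed 7SK level were Mvb12b (rho 0.92), AABR07063425.1 (0.85), Lhfpl4 (0.85), Sema5b (0.84) and Ttyh2 (0.84). For the summed U6 level they were Dgka (0.67), Cfap97 (0.66), Pank2 (0.63), Abracl (0.61) and Rpgr (0.61). The median rho of all these rows was 0.14 with the 7SK sum and -0.03 with the U6 sum.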

How the data were processed

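Total RNA of rat NAc at P14 was sequenced in 24 libraries, 4 in each of 6 groups, and samples were grouped by the treatment and generation in their labels. The deposited FPKM values, 1 for each gene in each library, were estimated by the authors with StringTie on a transcriptome merged over all samples. HISAT2 and SAMtools are also listed in the submitters' processing notes, and the authors tested differences with edgeR. The genome build, annotation release, strand setting and depth are not given in the sources used here. As the files hold FPKM and not counts, limma 3.58.1 in R 4.3.3 (lmFit, eBayes with a trend) was used on log2(FPKM + 0.1), for rows that reached 0.1 FPKM in 4 or more of the 8 libraries. P values were adjusted by the Benjamini-Hochberg method across all tested rows, and tests are two-sided. Libraries came from separate litters according to the study's design.

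Values were named for the 3 copies of each family with the highest mean FPKM and for up to 2 copies in each comparison that passed the rule with the lowest p. Genes of the 3 protein lists were named when past the rule. Markers and the other lists were given by counts, sums or correlations, without naming each gene that passed. Likeness was ranked by Spearman rho. Rn7sl1 and Rpph1 were singled out after their values were seen. The members and lists were chosen with earlier results of these data known. The alternatives were a pseudocount of 1, no filter, a minimum of 1 FPKM, upper-quartile rescaling, a replicate block, all 24 libraries in one fit, a 1.5-fold ratio, and each library left out in turn. The procedure was tested on simulated data. Python 3.11.15, pandas 2.3.3, numpy 2.4.6 and matplotlib 3.10.9 were used.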

Additional observations from a re-analysis of the deposited data

Results flagged for a closer look

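In 101 groups of 4 libraries with any spread (16 named copies and the 2 family sums), 12 single libraries lay apart by Dixon's test. Its chance rate of about 1 in 20 holds for normally spread values. These are FPKM values without a log scale, many of them listed at 0, so the 12 cannot be set against that rate. In F1 IUO, the 7SK copy ENSRNOG00000055947 was at 31.5 FPKM in replicate 4 against 3.64 to 5.49 FPKM in the others (gap over range 0.934). In F2 PNO, the U6 copy ENSRNOG00000059853 was at 9.84 FPKM in replicate 1 against 2.66 to 3.75 FPKM (0.848). The 7SK copy ENSRNOG00000058789 was at 0.65 FPKM in F2 IUO replicate 3 against 0 to 0.07 FPKM (0.892). The U6 copy ENSRNOG00000058451 was at 1.89 FPKM in F1 SAL replicate 4 against 0.16 to 0.32 FPKM (0.908) and at 0.16 FPKM in F2 PNO replicate 4 against 0.54 to 0.55 FPKM (0.974). The U6 copy ENSRNOG00000052770 was at 0.63 FPKM in F1 PNO replicate 1 against 0 to 0.03 FPKM (0.952). In 6 more groups the other 3 libraries were all listed at 0, which makes the gap the whole range (1). These were ENSRNOG00000060581 in F1 IUO (0.39 FPKM in replicate 3), ENSRNOG00000052770 in F1 IUO (0.02) and F2 SAL (0.19), ENSRNOG00000058451 and ENSRNOG00000060360 in F2 IUO replicate 2 (0.07 and 0.31) and ENSRNOG00000056622 in F2 IUO replicate 3 (0.04).

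In 12 cases among the named copies, the difference between treatments differed between F2 and F1 at an unadjusted interaction p under 0.05 in limma. Adjusted p values were 0.618 or higher. These copies were all named at least in part for a low p between groups of these data. The interaction mostly uses those groups again, so the cases are no separate support. For IUO against SAL the F2 difference minus the F1 difference (log2 scale) was -2.11 for ENSRNOG00000058555, -2.18 for ENSRNOG00000055947, -3.56 for ENSRNOG00000058789 and -1.72 for ENSRNOG00000056622, all 7SK. For the U6 copies it was 2.11 for ENSRNOG00000052770, 3.05 for ENSRNOG00000053493 and 1.90 for ENSRNOG00000054670. For PNO against SAL it was 1.72 for ENSRNOG00000054670 and 2.41 for ENSRNOG00000061677. The values of ENSRNOG00000052770 and ENSRNOG00000054670 restate their F1 SAL levels, since in these groups they reached 0.1 FPKM in 4 libraries in F1 SAL and in 0 or 1 in each other group. For IUO against PNO it was -1.66 for ENSRNOG00000058555, -3.55 for ENSRNOG00000058789 and -3.45 for ENSRNOG00000060360.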

How the results depend on the processing

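Of 361 alternative values of the named copies, 339 kept direction and side of the rule, 22 no longer passed and 0 turned sign. Settings in which a copy no longer entered the test gave no value and are not among the 361. Between F1 PNO and F1 SAL, ENSRNOG00000054670 had values in 9 settings and ENSRNOG00000058555 in 15. For copies tested only through 1 group, the kept values thus overstate how stable the call is. Where a setting below is given without a share, the share of all rows that passed under it was not read out. Those counts therefore cannot show whether the copies changed more or less than other rows. With a minimum of 1 FPKM in place of 0.1, fewer copies were tested and the number past the rule was 0, 4, 2, 4, 3, 2, 2, 1 and 1 (in the order F1 IUO against SAL, F1 PNO against SAL, F1 IUO against PNO, the same for F2, then F2 against F1 for SAL, PNO and IUO), and 3, 2 and 4 for the interactions (IUO against SAL, PNO against SAL, IUO against PNO). With no filter it was 12 for F2 IUO against PNO, 10 for F2 PNO against F1 PNO and 11 for F2 IUO against F1 IUO. With all 24 libraries in one fit it was 1 for F2 PNO against F1 PNO and 8 for F2 IUO against F1 IUO, and 1 copy had an adjusted p under 0.05 for F2 IUO against PNO. With a pseudocount of 1 it was 5 for F1 IUO against SAL, and 1 copy had an adjusted p under 0.05 for F2 PNO against SAL. The cause was not tested. Leaving out each library gave 3 to 11 copies for F1 IUO against SAL, 5 to 11 for F1 IUO against PNO, 2 to 8 for F2 IUO against SAL, 5 to 13 for F2 PNO against SAL, 1 to 6 for F2 PNO against F1 PNO and 2 to 6 for F2 IUO against F1 IUO, and 6 to 13 and 5 to 11 for the interactions of IUO against SAL and IUO against PNO. The lowest came without F1 SAL replicate 4 (3, F1 IUO against SAL), F1 PNO replicate 1 or F1 IUO replicate 1 (5, F1 IUO against PNO), F2 SAL replicate 3 (2 and 5, F2 IUO and F2 PNO against SAL), F1 PNO replicate 3 (1) and F1 IUO replicate 3 (2). ENSRNOG00000058555 no longer passed between F2 IUO and F1 IUO without F1 IUO replicate 3 or 4 or F2 IUO replicate 2 (log2 difference -0.82 at its smallest), without the libraries with the most rows at 0 (-0.50) and without those rich in choroid plexus markers (-0.74). Upper-quartile rescaling moved the median log2 difference of all rows by over 0.1 for F1 IUO against SAL (0.01 to -0.11), F1 IUO against PNO (0.03 to -0.08) and F2 IUO against PNO (-0.01 to -0.17). Without the libraries with the most rows at 0, left out after seeing the data, the count was 4 between IUO and PNO in F1 and 10 in F2 (2.6% and 1.96% of all rows passed). Without those rich in choroid plexus markers it was 2 for F1 IUO against PNO, 1 for F2 PNO against F1 PNO and 0 for F2 IUO against F1 IUO (3.94%, 1.46% and 2.26%). These fits kept 2 against 2, 3 against 2 and 3 against 2 libraries. Their smaller size and the choroid plexus content cannot be told apart.

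Whether same-numbered libraries of different groups were paired is not given in the sources used here. The correlation of the deviations of same-numbered libraries ran from -0.27 to 0.13. Libraries with different numbers were not compared in this way, so these values cannot decide whether a pairing exists. With a replicate block, the number of copies past the rule was 10, 11, 12, 10, 11, 6, 10, 4 and 6 in the order above, with 11, 10 and 7 copies under 0.05 for the interactions. The share of all rows that passed with the block was not read out.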
